A study of Mus musculus with 30 samples.

Results

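The subunits of the receptors for glutamate and GABA were examined in the subventricular zone (SVZ) and the striatum of mice whose endogenous neural precursor cells (eNPCs) had been ablated. Members were chosen by gene symbol: the Gria, Grin, Grik, Grid, Grm, Gabr and Gabbr genes, which code for AMPA, NMDA, kainate, delta and metabotropic glutamate receptors and for GABA-A and GABA-B receptors. The symbols named 47 genes, and 39 of them passed the filter in each tissue, which asked for a CPM (the count scaled to the total of its library) above 1 in at least 3 libraries. The filter left 16375 of 53278 genes in the SVZ and 15419 of 50508 in the striatum. In the SVZ the genes below it were Gabrr1, Gabrr2, Gabrr3, Gabrp, Gabra6, Grm6, Gabre and Gabrq. In the striatum they were Gabrr1, Gabrr2, Gabrr3, Gabrp, Gabra6, Grm6, Gabre and Grin3b. Just inside the filter in the SVZ lay Grin3b, with 4 libraries above 1 CPM, and just outside it Gabrr2, with 2. In the striatum, Grm2 and Gabrq lay just inside with 7 libraries each, and Grin3b lay just outside with 2.

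Glutamate is the main excitatory transmitter of the brain and reaches the striatum from the cortex and thalamus. AMPA, NMDA and kainate receptors are ion channels built of several subunits that open when glutamate binds, whereas metabotropic glutamate receptors act through G proteins. GABA is the main inhibitory transmitter and is also the transmitter of the medium spiny neurons, the principal cells of the striatum. GABA-A receptors are chloride channels, most often built of alpha and beta subunits with a gamma or a delta subunit, and GABA-B receptors are G-protein-coupled pairs of Gabbr1 and Gabbr2. In the SVZ, GABA and glutamate are also known to act on precursor cells and neuroblasts.

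The libraries came from adult C57Bl/6 mice, and both tissues of the same 15 mice were sequenced. NestinTK+ mice carry a herpes thymidine kinase transgene driven by the second intron of the rat Nestin promoter, so that ganciclovir (GCV) kills dividing cells in which the transgene is active. Their NestinTK- littermates were wild type. Either GCV or saline (PBS) was delivered from an osmotic minipump placed under the skin. The ablated group was NestinTK+ GCV (mice A1 to A5), and the controls were NestinTK- GCV (G1 to G3), NestinTK- PBS (P1 to P3) and NestinTK+ PBS (T1 to T4). The comparison of the 5 ablated mice with the 10 pooled controls asked how the tissue differed once eNPCs were lost, and the 4 groups separated the effects of genotype and of GCV. The labels give neither sex nor batch. The mouse numbers fall into a lower and a higher series, whose meaning is not given. All ablated mice are of the higher series, and all NestinTK- PBS mice, G1 and T1 are of the lower one. Group differences, above all those from NestinTK- PBS mice and the interaction, thus partly coincide with the series. The part of the series was tested only for ablated mice against pooled controls, with controls of the higher series alone. The outcome of that setting is given below for the striatum. For the SVZ it enters only the ranges over settings.

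SVZ libraries were made from whole transcripts and held 8360810 to 9595103 counts in ablated mice and 8947137 to 21056005 in controls. Striatal libraries were made from the 3′ ends of transcripts and held 2626962 to 3371033 and 2780471 to 4693441, respectively. The members took 0.379 to 0.653% of all counts in the SVZ and 0.532 to 0.648% in the striatum. The labels call the SVZ samples neural precursor cells, but these libraries held medium spiny neuron markers at a summed 6538 to 19510 CPM, and the study dissected whole SVZ tissue. Markers of neuroblasts and of dividing cells were lower in the ablated SVZ, for 7 of 13 and 7 of 10 genes at an unadjusted p of at most 0.05. Several libraries stood apart. In the SVZ, summed choroid plexus markers reached 103200, 46910 and 103700 CPM in P1, P2 and T3 against 15.77 to 793.2 in the other mice, cortical neuron markers were highest in A5 (2312) and G2 (2226), and septal markers in T2 (467.5). In the striatum, T2 held the fewest medium spiny neuron markers (6865 CPM against 13080 to 17470), the most septal markers (288.3 against 39.12 to 93.6) and the most choroid plexus markers (1454 against 13.32 to 53.62), and G1 and G3 lay together at one end of the first principal component. Striatal cortical neuron markers were highest in G2 (4853 CPM) and G1 (4096), against 1305 to 3312 in the other mice.

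In the SVZ, levels could be compared between genes only per length of exon. By median over the 15 mice, high levels were those of Gabbr1 (60.98 CPM per kb), Gria1 (59.57), Gabrd (58.5) and Grm5 (49.33), followed by Gria2 (36.89), Grik5 (30.72) and Grm3 (27.82). The lowest were Grik1 (0.3036), Grin3b (0.1093) and Grm2 (0.02953). The ranges over mice of every pair of neighbours in this order overlapped. Within the classes, Grin1 and Grin2b led the NMDA receptor subunits at mean levels of 24.23 and 23.83 CPM per kb, and Gabra4 led the alpha subunits (25.5). Gria1 made up 51.4% ± 5.35 (SD, n = 10) of the AMPA subunit level in controls and 51.2% ± 7.78 (n = 5) in ablated mice. Grik5, an auxiliary kainate receptor subunit that needs a Grik1, Grik2 or Grik3 partner to form a channel, made up 73.1% ± 5.61 and 74.6% ± 5.18 of its class.

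In the striatum, where a transcript yields reads from its 3′ end whatever its length, Gabbr1 (median 949.6 CPM), Gria1 (762.5), Grin2b (640.7), Gria2 (611.6) and Grm5 (585.6) were highest. Their ranges overlapped from neighbour to neighbour, and those of Grm5 and of the next gene, Gria3 (263.3), did not. These 5 genes code for the GABA-binding subunit of the GABA-B receptor, the AMPA subunits GluA1 and GluA2, the NMDA subunit GluN2B and the group I receptor mGlu5. Below them stood Gabrb1 (194.5), Gabra4 (172.7), Gabrd (164.1) and Gabra2 (156.3), and at the low end Grm8 (6.035), Grik1 (3.807), Grin2d (2.953), Grm2 (0.9971) and Gabrq (0.7382). The order was not compared between tissues, since the kits differed.

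**Figure D1:**
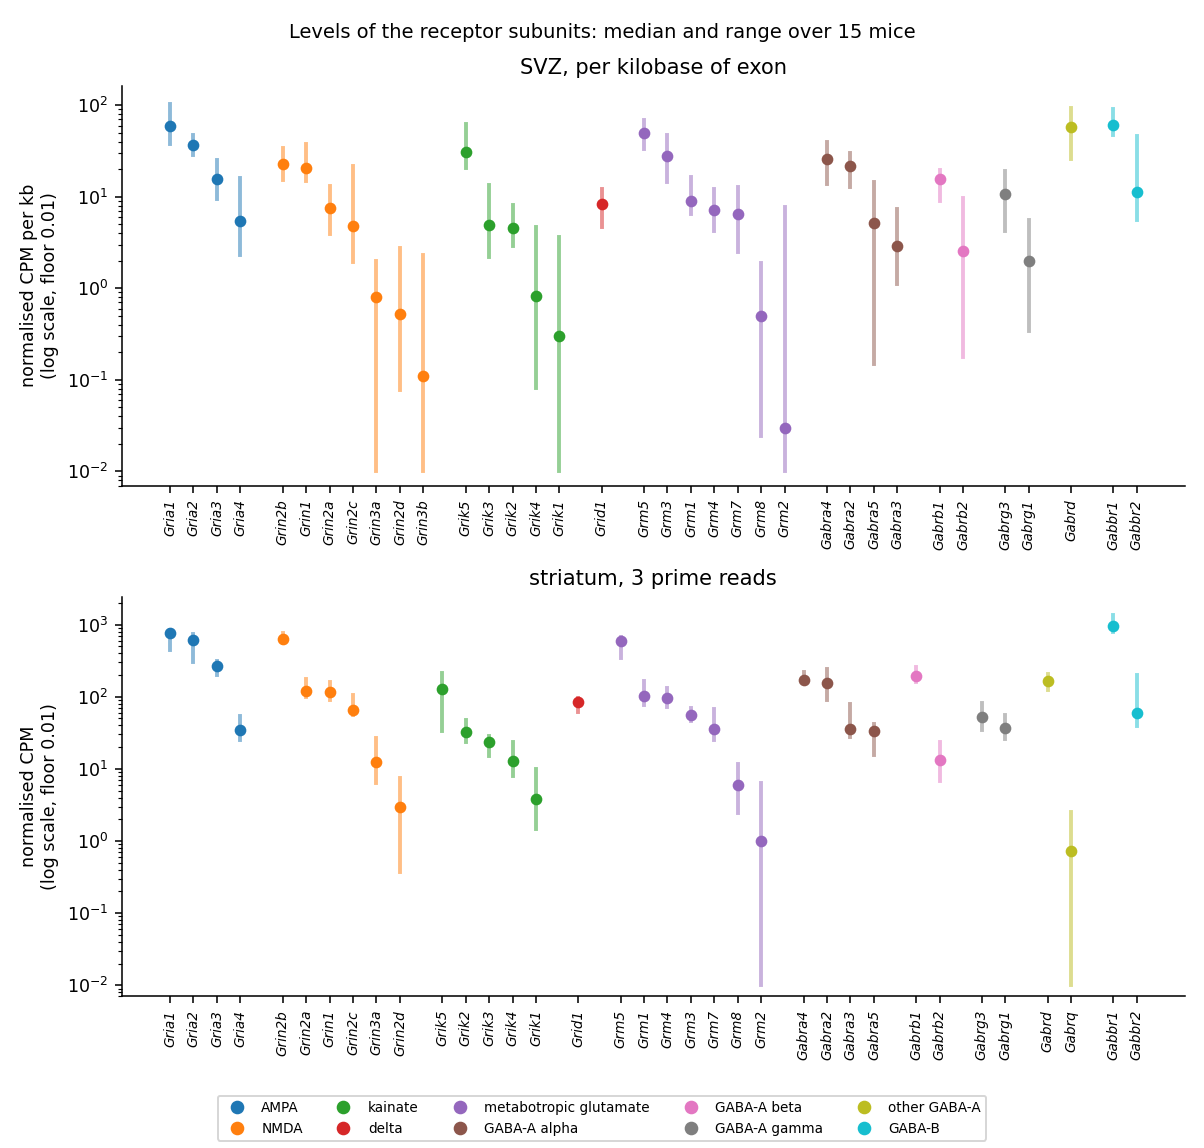
Median (points) and range (bars) over the 15 mice of the receptor subunits shown, as normalised CPM per kb of exon in the SVZ and normalised CPM in the striatum, on log axes with values under 0.01 drawn at 0.01. Gabbr1 has the highest median in both panels, at 60.98 CPM per kb and 949.6 CPM, and Grm2 has the lowest in the SVZ.

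In the ablated SVZ most subunits stood slightly higher than in the pooled controls, and no single one passed the criteria of the study. Of 39 members, 34 had a log2 fold change above 0 (48.1% of all genes tested did), and the median was 0.41 against -0.03 over all genes. Against single control groups the median over the members was 0.30 (NestinTK+ PBS) and 0.31 (NestinTK- GCV). Medians of like size came from mice that kept their eNPCs, at 0.29 for NestinTK- GCV minus NestinTK- PBS and 0.30 for NestinTK+ PBS minus NestinTK- PBS. The middle 50% of members lay between 0.24 and 0.55, and the range ran from -1.52 for Grin3b to 2.98 for Grm2. With the criteria of an unadjusted p of at most 0.01 and a change of at least 2-fold, 0 members were called, against 1.59% of all genes. At an unadjusted p of at most 0.05, 8 members were higher in ablated mice (3.73% of all genes were) and 0 were lower (6.09%), or 1 without A5. After Benjamini-Hochberg adjustment over all genes, no member was under 0.05 (0.00611% of genes were) by the quasi-likelihood test of edgeR. For 0 members did the 5 ablated mice lie wholly above the controls (0.11% of all genes) or wholly below them (0.147%). Glutamate and GABA receptor subunits had near-equal medians, at 0.41 (25 tested) and 0.39 (14 tested).

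Of the members, 4 were higher at an unadjusted p of at most 0.01 (1.01% of all genes were). Grin1 codes for GluN1, the subunit that every NMDA receptor contains. It lies on the minus strand at chr2:25291181-25319187 (GRCm38). Its level was 277.1, 308.9, 365.2, 295.3 and 307.7 normalised CPM in A1 to A5, and 172.7, 238.5 and 310.1 in G1 to G3. It was 201.9, 196.2 and 144.7 in P1 to P3, and 193.7, 159.9, 172 and 180.9 in T1 to T4. All ablated mice thus lay above every control but G3. The means were 310.8 ± 32.97 (SD, n = 5) and 197.1 ± 47.31 (n = 10), a log2 fold change of 0.66 (SE 0.158, unadjusted p = 0.000491, adjusted p = 0.318, edgeR). Over 24 other settings (edgeR, limma-voom and DESeq2), the log2 fold change of Grin1 ran from 0.37 to 0.759 and its adjusted p from 0.0124 to 0.999. Part of its exon sequence, 1307 bases, also belongs to the antisense gene Grin1os, and since no source used here says whether reads were counted by strand, reads there cannot be assigned to either gene.

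Grik5, on the minus strand at chr7:25009849-25072346, measured 147.3, 322.1, 245, 206.3 and 233.2 CPM in A1 to A5 and 160.6, 158 and 163.7 in G1 to G3. It was 132, 149.3 and 137 in P1 to P3 and 158.7, 105.3, 121.8 and 236.2 in T1 to T4. The groups overlapped: A1 lay below the control median, whereas the other ablated mice lay above all controls but T4. The log2 fold change of Grik5 was 0.60 (SE 0.184, unadjusted p = 0.00399, adjusted p = 0.352). It was 0.46 (unadjusted p = 0.0273) without A2.

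Gria2 codes for GluA2, the subunit that makes AMPA receptors impermeable to calcium, and lies on the minus strand at chr3:80681450-80802835. It measured 719.4, 691.2, 650.4, 736.2 and 601.2 CPM in A1 to A5 and 527.4, 488.6 and 603.4 in G1 to G3. It was 459.6, 526.2 and 533.4 in P1 to P3 and 573.6, 682.9, 439.5 and 564.1 in T1 to T4, so that G3 and T2 lay within the ablated range. The log2 fold change was 0.33 (SE 0.116, unadjusted p = 0.00961, adjusted p = 0.385). Leaving out 1 mouse at a time moved the p of Gria2 above 0.01 in 12 of 15 fits, up to 0.0273. The other 4 members with an unadjusted p of at most 0.05 were Grm5 (0.41, unadjusted p = 0.0148), Grik2 (0.55, unadjusted p = 0.0158), Gabrb2 (1.20, unadjusted p = 0.0394) and Grm3 (0.47, unadjusted p = 0.0422). Grm5 and Grm3 code for mGlu5 and for mGlu3, the latter mostly known from astrocytes, Grik2 for the kainate subunit GluK2 and Gabrb2 for the beta2 subunit.

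**Figure D2:**
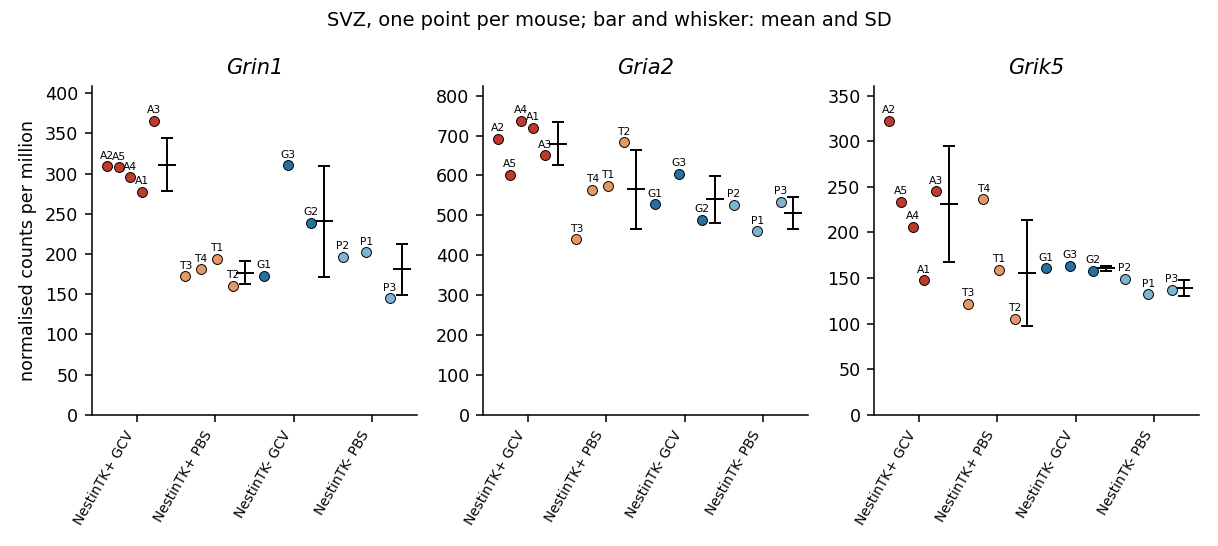
Normalised CPM of Grin1, Gria2 and Grik5 in the SVZ, with a point for each mouse in the 4 groups, a line at the group mean and a bar of 1 SD. For Grin1 the 5 NestinTK+ GCV mice sit between 277.1 and 365.2, above every control mouse but 1.

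By class, all 4 AMPA, all 5 GABA-A alpha, all 3 beta, all 3 gamma and both GABA-B genes tested had log2 fold changes above 0 in the SVZ. Of the NMDA subunits 6 of 7 did, of the kainate subunits 4 of 5, of the metabotropic receptors 6 of 7 and of the delta receptors 1 of 2. Median log2 fold changes were -0.16 for Gabrd, the single gene tested of the other GABA-A subunits, and -0.09 for the delta receptors. In the remaining classes they ran from 0.26 for the beta subunits to 0.76 for the gamma subunits, and were 0.30 for AMPA, 0.41 for NMDA, 0.555 for kainate and 0.41 for metabotropic receptors. Among the members below 0 were Grik1 (-1.37, unadjusted p = 0.282), Grin3b (-1.52, unadjusted p = 0.374), Grm8 (-1.24, unadjusted p = 0.129) and Gabrd (-0.16, unadjusted p = 0.49). Of the 3296 exon bases of Grin3b, 1059 also belong to the antisense gene Tmem259, so that reads there cannot be assigned to either gene. Gabrd, the delta subunit of extrasynaptic GABA-A receptors, measured 203.4, 203.5, 129, 168.2 and 74.07 CPM in A1 to A5 and 112.4 to 269 in controls. Its interval of the log2 fold change, 2 SE to each side, was -0.63 to 0.30. The summed level of the metabotropic receptors was 930.8 ± 76.37 CPM in ablated mice and 699.3 ± 120.2 in controls.

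Gria1, Gabbr1 and Gabra4 led their classes by level per kb. Gria1 measured 531.4, 532.1, 469.7, 352.4 and 307.7 CPM in A1 to A5 and 229.3 to 619.5 (median 342.6) in controls, with T2 highest of all mice. Gabbr1 measured 472, 528.6, 698.1, 431 and 670.4 CPM against 365.9 to 597.6 (median 467), and Gabra4 199.9, 156.2, 149.8, 243.6 and 114 against 83.08 to 200.9 (median 152.2). For these 3 genes the groups overlapped widely, and log2 fold changes of 0.24 to 0.27 had unadjusted p-values of 0.0943 to 0.265. Grm5, the leading metabotropic receptor, measured 650.8, 569.4, 643.8, 714.3 and 505.5 CPM in ablated mice against 341.8 to 688.6 (median 450.8), with the log2 fold change of 0.41 given above. Grid1, a delta receptor, measured 37.09, 70.34, 50.07, 66.32 and 27.9 against 28.52 to 72.93 (median 49.04), a log2 fold change of 0.06 (unadjusted p = 0.832). The 2 extreme fold changes were those of genes that varied widely between mice of a group. Grin3b, the lowest, had 159 reads in P1, 47 in G3, 49 in T3 and 0 to 15 in the other mice. Grm2, a presynaptic receptor of cortical inputs, had 0 reads in A1 and A3, 64 in A2, 122 in A4 and 273 in A5, and between 0 and 151 in controls. Its largest values thus came from A5 (38.08 CPM) and from A4 and G1 (14.96 and 10.84), and 470 bases of its exons are shared with Gm28111.

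**Figure D3:**
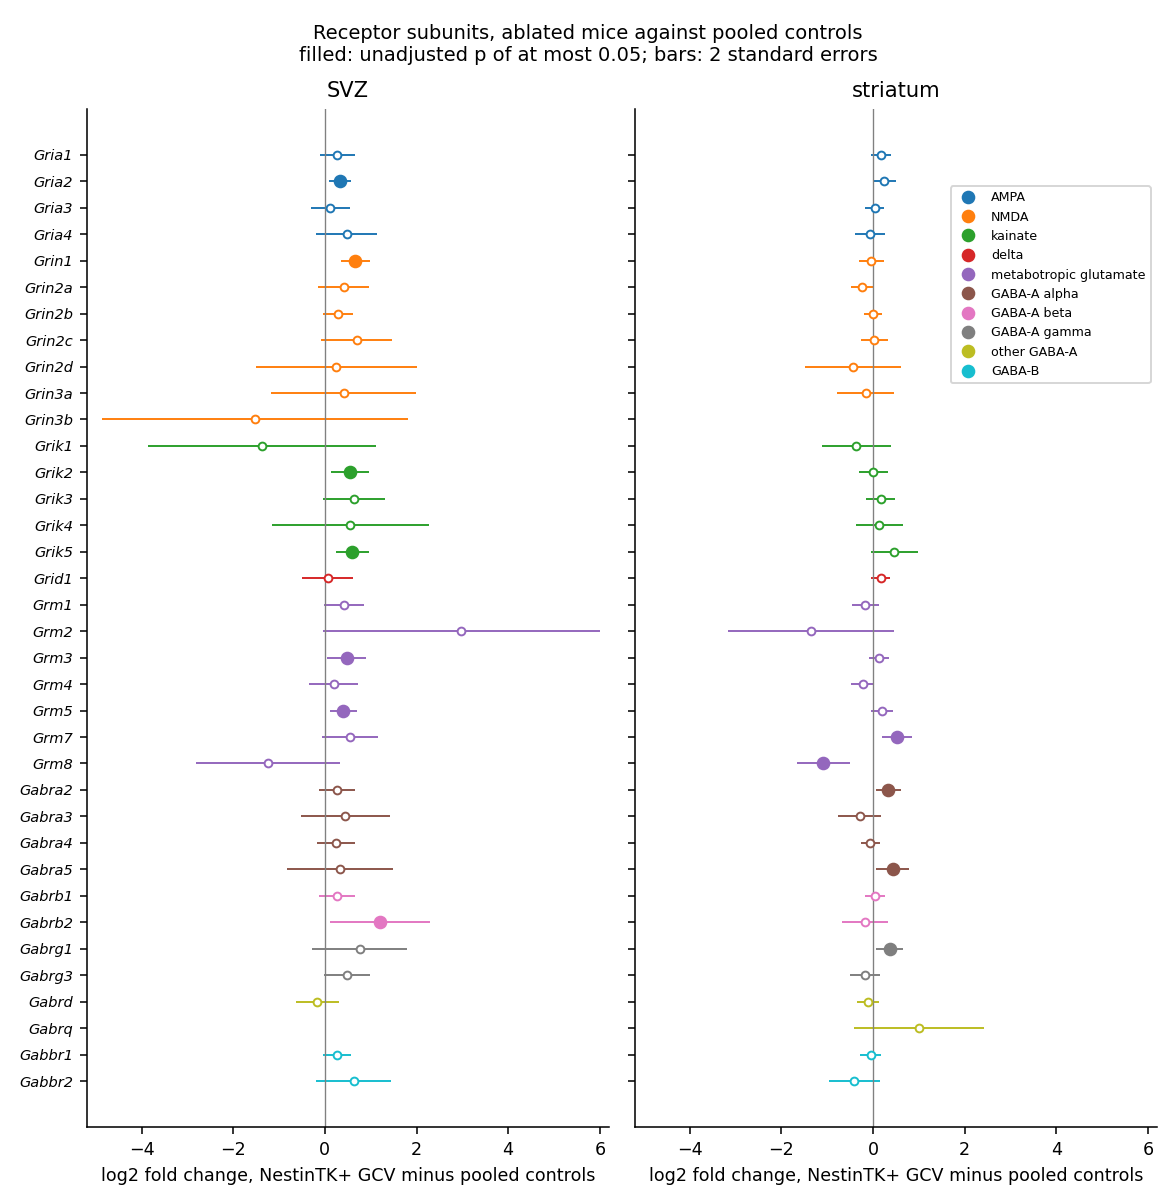
Log2 fold change of the receptor subunits shown, in ablated mice against pooled controls in the SVZ (left) and striatum (right), coloured by class, with bars of 2 SE to each side and filled points at an unadjusted p of at most 0.05. In the SVZ all 7 filled points lie above 0, and in the striatum 4 lie above and 1 below.

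Each mouse was also placed by the median of its 39 log2 deviations from the median of the 10 controls. In the SVZ this median was 0.31, 0.38, 0.46, 0.29 and 0.67 in A1 to A5 and -0.30 (T3) to 0.24 (G3) in controls, so every ablated mouse lay above every control. Over all genes tested the same median ran from -0.09 to 0.05. Markers of neurons and glia were placed in the same way. The 16 medium spiny neuron markers had medians of 0.23, 0.34, 0.57, 0.38 and -0.93 in A1 to A5 and of -0.71 to 0.23 in controls, with 14 of 16 genes above 0 in the comparison of groups and 0 at an unadjusted p of at most 0.05. The 7 general neuron genes Snap25, Syt1, Syn1, Rbfox3, Stx1a, Nsf and Vamp2, chosen after their values were seen, had medians of 0.09 to 0.74 in ablated mice and -0.32 to 1.04 in controls, and summed to 3326 to 5086 CPM and 2344 to 6458 CPM. Astrocyte markers ran from -0.07 to 0.61 against -0.30 to 0.23. Mouse A5 had the highest receptor median, the lowest medium spiny neuron marker median and a cortical marker median of 3.55. Mitochondrial genes took 13.1 to 17% of counts in the ablated mice and 6.69 to 12.9% in the controls other than G3, which had 15.2%. G3 was also the control with the highest receptor median and the highest Grin1. The part of these markers and of the mitochondrial share in the receptor values was not tested, and in bulk tissue a change in the number of cells and a change in RNA per cell cannot be told apart. Without the choroid-rich controls P1, P2 and T3, Grin1 stood at 0.63 (unadjusted p = 0.0031) and 3 members in place of 8 were higher at an unadjusted p of at most 0.05. Without A5, G2 and T2, Grin1 stood at 0.66 (unadjusted p = 0.00148). Both sets of mice left out were chosen after seeing the data.

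**Figure D4:**
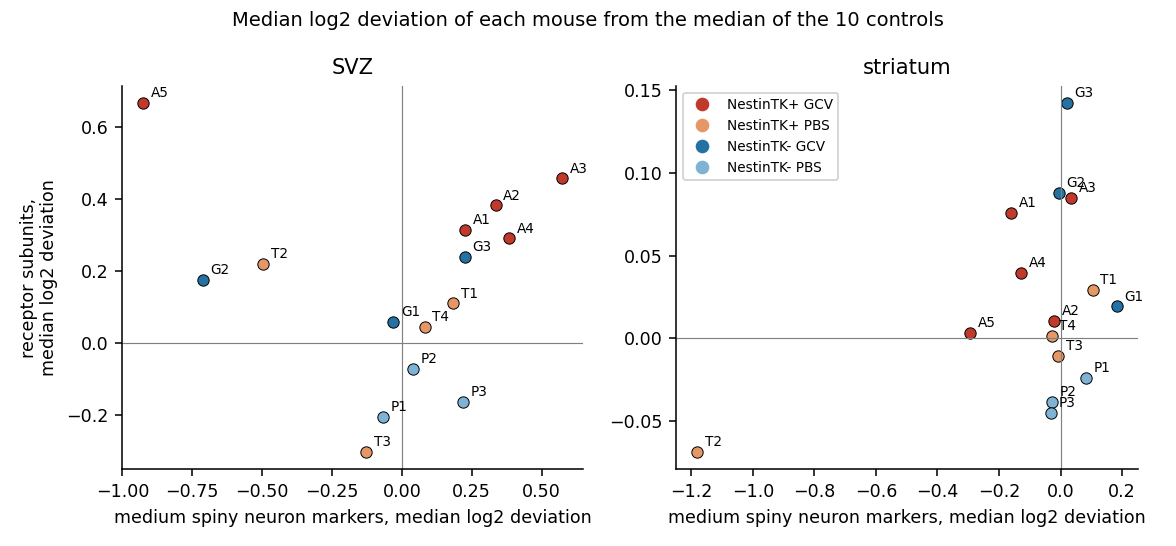
Median log2 deviation of the 39 receptor subunits (y axis) against that of the 16 medium spiny neuron markers (x axis), with a point for each mouse coloured by group and the median of the 10 controls as 0. In the SVZ the 5 ablated mice lie at 0.29 or higher on the y axis, above all controls, whereas in the striatum the groups overlap.

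The 4 groups placed the SVZ differences between NestinTK+ GCV and each control group. Against NestinTK+ PBS, which differs by design in GCV, 0 members were called (1.19% of all genes). At an unadjusted p of at most 0.05, 7 were higher (2.73%) and 0 were lower (4.4%). Those higher numbered 3 without T3 (2.34% of all genes) and 4 without T4 (2.15%). The lowest p-value was that of Grin1 (0.82, SE 0.186, unadjusted p = 0.000357, adjusted p = 0.607). Against NestinTK- GCV, which differs in the transgene, 0 members were called (0.94%), 2 were higher at an unadjusted p of at most 0.05 (4.18%) and 0 lower (3.27%). The 2 became 8 without G3 (4.24% of all genes), 4 without A1 or A5, 1 without P1 or T1 and 0 without G1 or G2. Among those higher was Gabrg1 (1.60, unadjusted p = 0.046). Grin1 was 0.37 (unadjusted p = 0.124) when the 3 NestinTK- GCV mice were the only controls. These comparisons share the ablated mice.

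Among mice that kept their eNPCs, GCV and genotype were set apart in the same fit, each against NestinTK- PBS mice, all of the lower number series. NestinTK- GCV against NestinTK- PBS gave 0 members called in the SVZ (1.06% of all genes) with 7 higher (2.93%) and 0 lower (4.72%) at an unadjusted p of at most 0.05, among them Gabbr2 (1.55, unadjusted p = 0.012), the signalling subunit of the GABA-B receptor. Those higher numbered 2 without P1 (3.89% of all genes), 3 without G2 and 4 without G3, P2 or P3, and 1 was lower without G3. Gabbr2 stood at 82.87, 196.4 and 82.51 CPM in G1 to G3, at 36.99, 47.1 and 39.89 in P1 to P3 and at 306.2 CPM in A5. The 2 mice with the most cortical markers, A5 and G2, thus also held the most Gabbr2. NestinTK+ PBS against NestinTK- PBS gave 0 called (0.195%) with 1 member higher (1.74%), Gabra3 (1.83, unadjusted p = 0.0109), and 0 lower (0.953%) at an unadjusted p of at most 0.05. Leaving out A5, P1, P2, P3 or T3 gave 2 higher, and leaving out A5, P2 or T3 gave 1 lower. The interaction of genotype and treatment gave 0 members called (0.837%) and 0 at an unadjusted p of at most 0.05 (5.09%). Without G3, 3 were higher (3.39%), and leaving out A2, A4, A5, P3 or T3 gave at most 1 in each direction. No gene of the table had an adjusted p under 0.05 in any of these SVZ comparisons.

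In the striatum the median change of the subunits and their share above 0 were near those of all genes. In ablated mice against pooled controls, 20 of 39 members had a log2 fold change above 0 (50.5% of all genes), and their median was 0.00494 against 0.00369 over all genes. 1 member was called at an unadjusted p of at most 0.01 and a change of at least 2-fold (0.694% of all genes), and 0 had an adjusted p under 0.05 (0.182%). At an unadjusted p of at most 0.05, 5 were higher (12.8% of members, 5.19% of all genes) and 2 lower (5.13% and 5.31%). Those higher numbered 2 without A1 (4.64%), and those lower 1 without A2 (3.75%) and 4 without P2 (5.7%). For 0 members did the ablated mice lie wholly above (0.279% of all genes) or below (0.253%) the controls. Per mouse, the median deviation of the members was 0.0033 to 0.0849 in ablated mice and -0.07 to 0.14 in controls.

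The member called was Grm8, which codes for mGlu8, a group III receptor that limits transmitter release from nerve terminals. It lies on the minus strand at chr6:27275119-28135178. It was held by few reads: 20, 7, 15, 7 and 11 in A1 to A5 and 14 to 47 in controls. As normalised CPM these were 5.674, 2.467, 4.986, 2.59 and 3.991 in A1 to A5, 11.69, 11.1 and 4.504 in G1 to G3, 8.942, 8.34 and 9.922 in P1 to P3 and 7.4, 11.48, 6.035 and 5.167 in T1 to T4. The ablated mice were the lowest except that G3 and T4 lay among them. The means were 3.941 ± 1.423 (SD, n = 5) and 8.458 ± 2.633 (n = 10), and Grm8 fell by 1.08 on the log2 scale (SE 0.294, unadjusted p = 0.00119, adjusted p = 0.128, edgeR). Without T2, G1 and G3, a set chosen after seeing the data, it was -1.03 (unadjusted p = 0.00185). Without A2 or without A4 it was no longer past both criteria. In the SVZ, Grm8 was at 4.275, 0.2401, 0.7436, 5.516 and 6.277 CPM in A1 to A5 and at 1.845 to 18.73 in controls, which overlapped.

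Grm7, another group III receptor, on the plus strand at chr6:110645581-111567230, had the next lowest p in the ablated striatum. It measured 56.46, 33.48, 35.56, 46.98 and 68.57 CPM in A1 to A5 and 25.02, 28.57 and 27.02 in G1 to G3. It was 30.53, 39.8 and 41.63 in P1 to P3 and 41.57, 29.36, 37.26 and 36.17 in T1 to T4, with A1, A4 and A5 above all controls and A2 and A3 among them. The log2 fold change was 0.52 (SE 0.165, unadjusted p = 0.00469, adjusted p = 0.232), and 0.36 (unadjusted p = 0.0446) without A5. Over the settings tried (edgeR, limma-voom and DESeq2), the adjusted p of Grm7 ran from 0.0183 to 0.585. Of the GABA-A subunits, Gabrg1 was 0.36 (unadjusted p = 0.0193), Gabra2 0.34 (SE 0.139, unadjusted p = 0.0227) and Gabra5 0.44 (SE 0.18, unadjusted p = 0.0236), none with an adjusted p under 0.05. As shares of the summed alpha subunits, Gabra2 took 35.0% ± 3.51 in ablated mice and 28.2% ± 5.11 in controls.

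The genes that led the classes differed less. Gabbr1 measured 890.6, 895.4, 1033, 968.1 and 956.7 CPM in A1 to A5 and 803.8 to 1352 (median 944.6) in controls, and Gria1 805.7, 823.2, 835.6, 776.5 and 769.1 against 438.8 to 798.7 (median 723.9). Grin2b measured 587.3, 625.8, 694.3, 694.4 and 609.1 CPM against 561.8 to 757.9 (median 646.3), and Grm5 585.6, 629, 558.7, 664.4 and 596.8 against 340.6 to 643.8 (median 527.1). The lowest Gria1 and Grm5 of all mice were those of T2, the library with the fewest medium spiny neuron markers. Log2 fold changes were -0.05 for Gabbr1, 0.17 for Gria1, 0.00494 for Grin2b and 0.20 for Grm5, with unadjusted p-values from 0.109 to 0.959. Gabra4, Gabrb1, Gabrd and Grid1 lay between -0.10 and 0.17. For Grin2b, 2 SE to each side spanned -0.19 to 0.20, and for Gabra4 -0.26 to 0.15.

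In the striatum the ablated mice were also set against each control group. Against NestinTK- GCV, 2 members were called in ablated mice (2.1% of all genes), and 3 had an adjusted p under 0.05 (3.13%). Grik5 was 1.19 (SE 0.291, unadjusted p = 0.000397, adjusted p = 0.0246), Grm7 0.84 (SE 0.212, adjusted p = 0.0297) and Grin2a, the GluN2A subunit, -0.49 (SE 0.132, adjusted p = 0.0431), and the other member called was Grm8 (-1.18, SE 0.372, unadjusted p = 0.00406, adjusted p = 0.0785). At an unadjusted p of at most 0.05, 5 members were higher (9.97%) and 5 lower (7.74%). Those higher numbered 3 without G1 (8.69%), and those lower 9 without T2 (9.25%) and 8 without T1. Grik5 measured 128.2, 211.8, 127.6, 148.3 and 152.4 CPM in A1 to A5, 47.58, 119.2 and 34.03 in G1 to G3, 96.62, 167.5 and 155.9 in P1 to P3 and 136.9, 80.61, 143.3 and 128.1 in T1 to T4. The low mice were G1 and G3, the pair at one end of the first principal component, and G2 lay near the other groups. Without G3 the difference of Grik5 was 0.88 (unadjusted p = 0.00595), and without G2 it was 1.91. Grin2a measured 99.3, 108.9, 131.3, 113.9 and 105.2 CPM in A1 to A5 and 148.7, 179 and 141.6 in G1 to G3. Without G2 the difference of Grin2a was -0.378 (unadjusted p = 0.0175, edgeR). Over the settings tried (edgeR and limma-voom), the adjusted p of Grin2a ran from 0.0169 to 0.187. That of Grik5 ran from 8.36e-10 to 0.189 and that of Grm7 from 0.00275 to 0.145. Grm4, a group III receptor, was -0.46 (SE 0.148, unadjusted p = 0.00496, adjusted p = 0.0888). It measured 93.34, 76.82, 96.39, 80.65 and 90.7 CPM in A1 to A5, 130.5, 98.93 and 131.6 in G1 to G3, 109.5, 72.2 and 96.8 in P1 to P3 and 104, 90.75, 94.19 and 95.22 in T1 to T4. The G mice lay above all ablated mice, whereas the P and T mice overlapped them. Summed cortical neuron markers were 4096, 4853 and 2862 CPM in G1 to G3 and 1755 to 2576 in A1 to A5. Their part in the differences from the G mice was not tested.

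Against NestinTK+ PBS, 0 members were called in the ablated striatum (1.35%), 6 were higher at an unadjusted p of at most 0.05 (4.9%) and 4 lower (5.18%). Those lower numbered 0 without T2 (3.46%) and 2 without A2, A4 or A5. Those higher numbered 2 without A1 (4.62%), A5 or T2 and 3 without T4. The lowest p-values were those of Gabbr2 (-0.81, SE 0.263, unadjusted p = 0.00515, adjusted p = 0.232) and Gabrg1 (0.49, SE 0.166, unadjusted p = 0.00646). Gabbr2 measured 60.71, 47.22, 53.51, 59.56 and 61.31 CPM in A1 to A5, 55.47, 98.93 and 64.81 in G1 to G3, 51.91, 39.32 and 43.8 in P1 to P3 and 58.76, 197.8, 56.41 and 83.04 in T1 to T4. The difference rested on T2: without that mouse it was -0.22 (unadjusted p = 0.227). Gabrg1, the gamma1 subunit, measured 55.04, 41.58, 32.57, 45.5 and 42.45 CPM in A1 to A5, 27.19, 37.07 and 29.03 in G1 to G3, 41, 43.13 and 37.03 in P1 to P3 and 25.68, 32.83, 31.75 and 33.59 in T1 to T4, with A3 alone within the range of the T mice. Grm8 (-0.92, unadjusted p = 0.0159) and Grm7 (0.42, unadjusted p = 0.0382) kept the directions they had against the pool, which contains the T mice.

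In mice with eNPCs, GCV without the transgene and the transgene without GCV were compared in the striatum, again with NestinTK- PBS mice of the lower number series. NestinTK- GCV against NestinTK- PBS gave 1 member called (2.46%), Grik5 (-1.06, SE 0.313, unadjusted p = 0.00247, adjusted p = 0.0758), which was -0.74 (unadjusted p = 0.0241) without G3. It gave 9 members higher (7.05%) and 1 lower (9.08%) at an unadjusted p of at most 0.05, with Gabbr1 at 0.43 (SE 0.139, unadjusted p = 0.00492) and Grin1 at 0.49 (SE 0.167, unadjusted p = 0.00693). Those higher numbered 4 without G2 (6.16%) or P2 and 5 without G3, and those lower 3 without T2 (10.4%) and 2 without A2, A3, A5, G2 or P1. Gabbr1 measured 1167, 1056 and 1352 CPM in G1 to G3 and 991.9, 803.8 and 857.9 in P1 to P3. Grin1 measured 112.3, 113.1, 149.2, 115.4 and 99.77 CPM in A1 to A5, 131.9, 155.4 and 162.6 in G1 to G3, 125.2, 95.56 and 98.98 in P1 to P3 and 118.4, 90.75, 119.4 and 108.5 in T1 to T4. Its G mice lay above the P and T mice, and of the ablated mice only A3 lay within the range of the G mice. Of 12 cortical neuron markers, 7 were also higher in NestinTK- GCV than in NestinTK- PBS mice at an unadjusted p of at most 0.05. Their part in the receptor values was not tested. NestinTK+ PBS against NestinTK- PBS gave 2 called (0.83%), Gabbr2 (1.13, SE 0.307, unadjusted p = 0.00111, adjusted p = 0.675) and Grm2 (unadjusted p = 0.00504, adjusted p = 0.713), with 3 members higher (3.94%) and 1 lower (2.46%) at an unadjusted p of at most 0.05. Without T1, 5 were higher (4.64%), and without any of A2, A4, A5, G3, P1, P2, T1 and T3, 0 were lower. Without T2, 0 were called and Gabbr2 was 0.54 (unadjusted p = 0.0101). Grm2 had 10, 24, 6 and 8 reads in T1 to T4 and 0, 0 and 3 in P1 to P3. The ratio of pooled reads was 13.9 (95% exact interval 4.48 to 69.8, counting error only). The fitted log2 value of 3.62 depends on the default prior count of the edgeR fit, which is not the 2 used for log2 CPM.

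The interaction asked whether GCV acted differently in the 2 genotypes, and 4 striatal members were called in it (3.28% of all genes), none with an adjusted p under 0.05 (0.817%). At an unadjusted p of at most 0.05, 5 were higher (8.42%) and 7 lower (6.65%), and without P2 3 and 4. Gabbr2 was -1.51 (SE 0.417, unadjusted p = 0.00135, adjusted p = 0.0804), Grik5 1.39 (SE 0.404, unadjusted p = 0.00213, adjusted p = 0.0904), Grm2 -5.10 (unadjusted p = 0.00239, adjusted p = 0.0951) and Gabra3 -1.26 (SE 0.381, unadjusted p = 0.00283, adjusted p = 0.0985). Over the settings tried (edgeR and limma-voom), the adjusted p ran from 6.92e-07 to 0.232 for Gabbr2 and from 1.02e-06 to 0.262 for Grik5. It ran from 0.00636 to 0.254 for Grm2 and from 0.000715 to 0.277 for Gabra3. Grm2 rested on the few reads given above and on 8, 0, 3, 0 and 1 reads in A1 to A5 and 1, 14 and 12 in G1 to G3. Gabra3, the alpha3 subunit, on chrX:72432681-72656848, measured 43.69, 28.19, 30.25, 36.25 and 42.09 CPM in A1 to A5, 36.16, 75.79 and 40.79 in G1 to G3, 29.88, 27.88 and 30.74 in P1 to P3 and 27.86, 79.81, 41.19 and 52.78 in T1 to T4. The high mice were G2 and T2, 1 in each of the groups that enter the interaction with a minus sign, and without G2 it was -0.86 (unadjusted p = 0.0277). Without T2, the interaction was -0.92 for Gabbr2 (unadjusted p = 0.00159), -0.94 for Gabra3 (unadjusted p = 0.00757), -4.54 for Grm2 (unadjusted p = 0.00635) and 1.23 for Grik5 (unadjusted p = 0.00224), and 2 members were called (3.71% of all genes). Gabrg1 (0.87, SE 0.258, unadjusted p = 0.00249) and Grm7 (0.89, SE 0.299, unadjusted p = 0.0067) had p-values under 0.01 with changes below 2-fold.

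**Figure D5:**
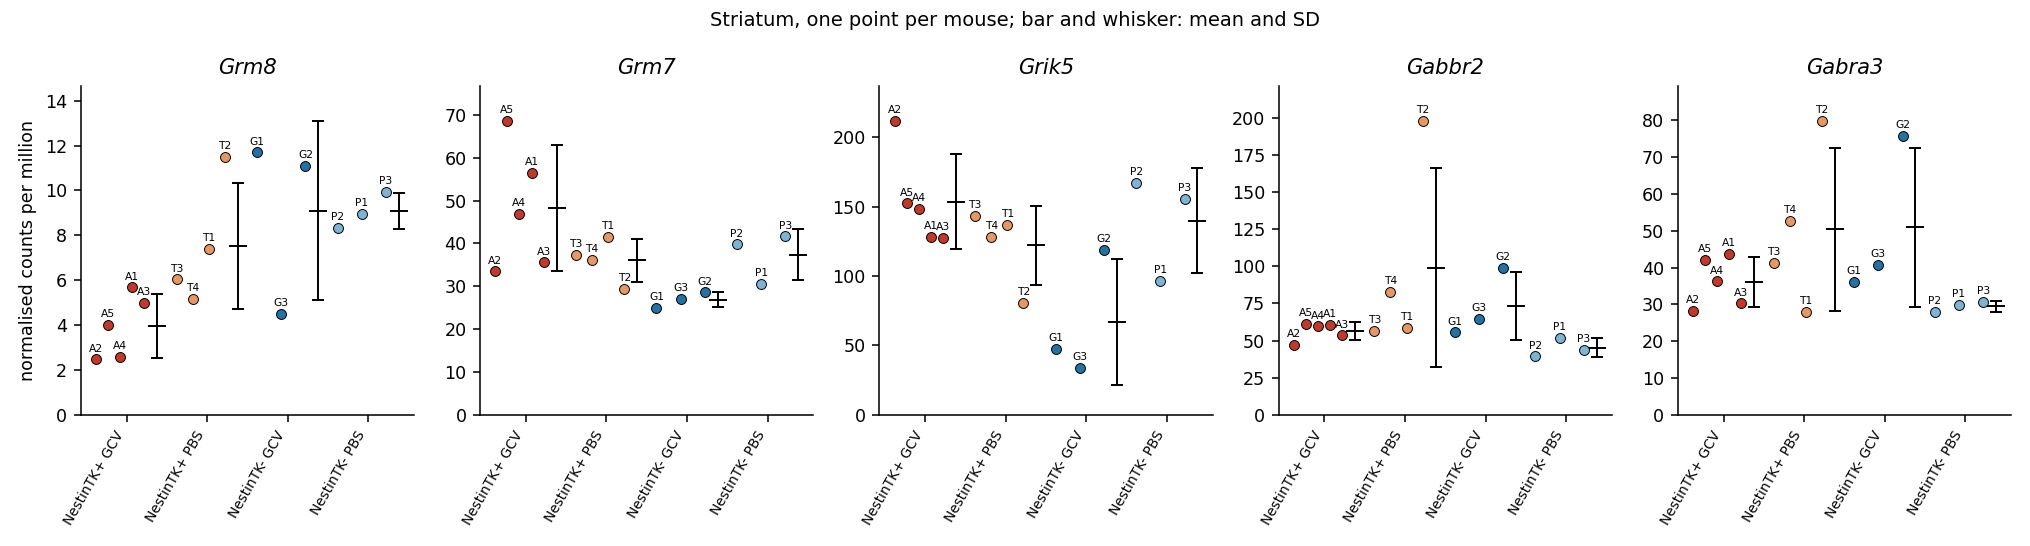
Normalised CPM of Grm8, Grm7, Grik5, Gabbr2 and Gabra3 in the striatum, with a point for each mouse in the 4 groups, a line at the group mean and a bar of 1 SD. Grm8 lies between 2.467 and 5.674 in the ablated mice, Gabbr2 is highest in T2 at 197.8, and Grik5 is lowest in G3 at 34.03.

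The sequences just upstream of the genes on which these comparisons turned are given for reference, as the 250 bases before the RefSeq start (GRCm38.p6, 5′ to 3′ on the gene's strand, all minus), with motif matches in capitals. Grin1 had the lowest p in the SVZ, Grm8 was the member called in the ablated striatum, and Grik5 and Grm2 were called among the striatal groups. The windows are chr2:25319188-25319437 for Grin1, chr7:25072370-25072619 for Grik5, chr6:28135147-28135396 for Grm8, whose most upstream of 3 starts was taken, and chr9:106656110-106656359 for Grm2.
Grin1: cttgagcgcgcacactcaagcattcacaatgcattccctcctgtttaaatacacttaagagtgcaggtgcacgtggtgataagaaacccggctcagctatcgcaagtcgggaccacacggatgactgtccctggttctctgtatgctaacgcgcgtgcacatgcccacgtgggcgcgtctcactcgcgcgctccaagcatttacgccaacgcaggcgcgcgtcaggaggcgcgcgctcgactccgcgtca
Grik5: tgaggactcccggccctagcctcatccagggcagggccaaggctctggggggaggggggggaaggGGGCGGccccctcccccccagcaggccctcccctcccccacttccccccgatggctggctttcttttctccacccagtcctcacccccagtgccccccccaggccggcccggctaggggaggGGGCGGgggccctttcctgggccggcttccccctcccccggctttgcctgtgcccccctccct
Grm8: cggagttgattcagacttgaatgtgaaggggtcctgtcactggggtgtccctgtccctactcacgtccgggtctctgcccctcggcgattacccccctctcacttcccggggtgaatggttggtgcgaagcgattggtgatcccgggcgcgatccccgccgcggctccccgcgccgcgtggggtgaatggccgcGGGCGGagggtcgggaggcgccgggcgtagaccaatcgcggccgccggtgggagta
Grm2: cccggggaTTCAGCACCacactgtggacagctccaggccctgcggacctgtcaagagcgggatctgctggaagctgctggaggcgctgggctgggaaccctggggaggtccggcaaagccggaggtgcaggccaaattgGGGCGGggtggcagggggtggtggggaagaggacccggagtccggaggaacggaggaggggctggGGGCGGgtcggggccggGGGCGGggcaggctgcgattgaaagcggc

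The motifs were searched on both strands and did not overlap. The GC box GGGCGG occurred upstream of Grik5 at -185 and -63 from the start, at -56 upstream of Grm8 and at -111, -46 and -29 upstream of Grm2, and not in the window of Grin1. It was present in 46.2% of the 39 windows of the 32 members with an entry and in 32.7% of all 32851 windows. TTCAGCACC, the left part of the RE1 element bound by the neuronal repressor REST, occurred at -242 in the Grm2 window and in no other member, against 0.301% of all windows. The cyclic AMP response element TGACGTCA was in 0 member windows (1.55% of all), and TATAAA in 10.3% of member windows (12.4% of all), those of Gabra3, Gabrb2 and Grin3b. The GC content of the printed windows was 58.8% for Grin1, 75.2% for Grik5, 68.4% for Grm8 and 71.2% for Grm2, against a median of 52.4% over all windows and 58.8% over those of members.

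Genes that make, move and remove the transmitters, or that anchor the receptors, were counted as lists in the comparison of ablated mice with pooled controls. Of all SVZ genes tested, 3.73% were higher at an unadjusted p of at most 0.05 and 48.1% had a log2 fold change above 0. In the SVZ, 0 of 8 genes of GABA synthesis and transport were past an unadjusted p of 0.05, with Slc32a1, the vesicular GABA transporter, at 0.31 and Gad1 at 0.23. Among 3 chloride transporters, Slc12a5, which keeps chloride low in mature neurons, was 0.36 (SE 0.129, unadjusted p = 0.0113) and Slc12a2, which loads it, -0.76 (unadjusted p = 0.106). Of 20 genes of GABA-A scaffold and assembly 4 were higher, led by Shisa7 (0.52, unadjusted p = 0.0111) and Nrxn3 (0.34, unadjusted p = 0.0307). Of 21 AMPA receptor auxiliary genes 3 were higher, and 1, Cacng7, a transmembrane AMPA receptor regulatory protein, was called (1.34, SE 0.427, unadjusted p = 0.00532, adjusted p = 0.37). It stood at 24.7 ± 17.2 CPM in ablated mice and 9.76 ± 3.05 in controls. Cacng3 was 0.73 (SE 0.202, unadjusted p = 0.00185, adjusted p = 0.347). Of 15 glutamate receptor scaffold genes 5 were higher, among them Shank3 (0.74, unadjusted p = 0.0221). All 10 genes of glutamate transport and metabolism were above 0, at a median of 0.30, and 0 of them, 0 of 4 GABA-B auxiliary genes and 0 of 7 kainate and delta auxiliary genes passed 0.05. No gene of these lists was lower at that threshold in the SVZ.

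In the striatum the same lists gave few genes past an unadjusted p of 0.05, where 5.19% of all genes tested were higher and 5.31% lower. Plcl1, which takes part in the trafficking of GABA-A receptors, was -0.60 (SE 0.159, unadjusted p = 0.000906, adjusted p = 0.117), with 3 of 20 scaffold and assembly genes lower and 0 higher. Slc12a2 was -0.53 (unadjusted p = 0.00603), and Gad2, a GABA-producing enzyme, 0.22 (unadjusted p = 0.0428). Of 20 AMPA auxiliary genes 2 were higher and 2 lower. Cacng7 was -0.54 (SE 0.163, unadjusted p = 0.00294, adjusted p = 0.189), at 118 ± 26.7 CPM in ablated mice and 172 ± 36.9 in controls, a direction opposite to that in the SVZ, and the difference between tissues was not tested. Shank3 was -0.41 (unadjusted p = 0.0125), the single scaffold gene of 15 past the threshold. The lists of glutamate transport (11 genes), GABA-B auxiliary (4) and kainate and delta auxiliary genes (7) held 0. Among markers, 8 of 10 oligodendrocyte genes were lower in the ablated striatum at a median of -0.62, as were 4 of 11 astrocyte genes, and 1 of the medium spiny neuron markers was higher and 2 were lower. Their part in the receptor values was not tested.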

How the data were processed

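RNA from the SVZ and the striatum of 15 mice was sequenced in 30 libraries, with the SMART-Seq v4 kit for the SVZ and the QuantSeq 3′ FWD kit for the striatum. The authors deposited raw read counts per gene. Reads were trimmed with Trimmomatic (version 0.36 in the submitters' notes, whereas the study's methods give another version). According to the study and those notes, they were aligned with STAR 2.5.3a to GRCm38 (mm10) with Gencode M16 and counted with featureCounts, whose strand setting is not given in the sources used here. The authors analysed them with limma.

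From the deposited counts, genes with CPM above 1 in at least 3 libraries were kept in each tissue apart, scaled by TMM and fitted with the quasi-likelihood test of edgeR 4.0.16 in R 4.3.3, once with 2 groups (ablated and pooled controls) and once with 4. Calls used the thresholds of the study, an unadjusted p of at most 0.01 and a 2-fold change, and p-values were adjusted by Benjamini-Hochberg over all genes tested. The scripts were tested on simulated data. Log2 CPM used a prior count of 2, and intervals are 2 SE to each side. P-values set each difference between groups against the spread between mice. That spread was moderated across genes and, in the fit of 4 groups, pooled over all of them. Leaving out a mouse of 1 group can therefore move the p-values of comparisons between others. Named in detail were members with an unadjusted p of at most 0.01 in a comparison, with mouse values, and the leading gene of each class, for which the 10 controls, and for some striatal genes all mice, are given by range or fold change. How often the mice of single groups lay wholly apart was not counted over all genes. Of each pathway list, genes called or, failing that, those with the lowest p are named. Gene positions are those of GENCODE vM21 and upstream sequences those of RefSeq (GRCm38.p6). Alternatives were limma-voom (limma 3.58.1), DESeq2 1.42.0 and its size factors, no filter, other sets of controls and leaving out each mouse. The members and lists were chosen with earlier results of these data known. Some members and list genes enter the counts and medians but are not reported here by name or in figures.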

Additional observations from a re-analysis of the deposited data

Results flagged for a closer look

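In the striatum of NestinTK+ PBS mice, T2 stood apart from the other 3 mice of its group in 2 members. Its Gabrb1 level was 260 normalised CPM against 186.3 to 197.6, and its Gria1 level 438.8 against 737.8 to 782.9. Of 64 sets of 4 or 5 mice examined, these 2 (3.12%) held such a mouse, where chance gives about 5%. The same library held 6865 CPM of medium spiny neuron markers against 13080 to 17470 in the others, and the part of these markers in the 2 values was not tested.

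The effect of GCV differed between genotypes in the striatum for 4 members by the test of the interaction, where 3.28% of all genes were called. None of the 4 was past adjustment over all genes in the main fit. Over the other settings, the adjusted p of each of the 4 lay under 0.05 in some and above it in others. Without T2, 2 members were called (3.71% of all genes). On the log2 scale the effect in NestinTK+ minus that in NestinTK- mice was -1.51 for Gabbr2, 1.39 for Grik5, -5.1 for Grm2 and -1.26 for Gabra3. Gabbr2 and Gabra3 were highest in T2, and Grik5 was lowest in G3 and G1.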

How the results depend on the processing

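Of 78 results of single members at an unadjusted p of at most 0.05, 0 turned their direction in any setting, 18 stayed on the same side of a p of 0.01 in every setting and 60 crossed it in at least 1. The 78 were picked by their p in the same data, so a turn of direction was unlikely from the outset. Some counts depended on the controls, and the share of all genes that met the same criterion in the same setting is given in parentheses. In the SVZ, 1 member was called when the 3 control groups were averaged in the 4-group fit (1.78%), and 1 member in place of 8 was higher at an unadjusted p of at most 0.05 with NestinTK- GCV mice as the only controls (2.28%), and 3 without P1, P2 and T3 (2.57%), a choice made after seeing the data. In the striatum, 6 members were lower when controls came from the same number series as the ablated mice (6.97%) and 9 with NestinTK- GCV mice as the only controls (10.9%), where 13 were above 0 (49.4%) and 2 were called (2.51%), and the median log2 fold change was -0.0807 (all genes -0.000407) and -0.156 (all genes -0.00653), respectively. Without the filter, 1 member was called in NestinTK+ GCV minus NestinTK+ PBS in the SVZ (1.71%) and in the striatum (1.36%), and in NestinTK- GCV minus NestinTK- PBS 1 in the SVZ (1.27%) and 2 in the striatum (1.98%). With limma-voom, 1 was called in NestinTK- GCV minus NestinTK- PBS in the SVZ (1.61%), and in the striatum 1 in NestinTK+ GCV minus NestinTK- GCV (1.82%) and 1 in NestinTK+ PBS minus NestinTK- PBS (0.532%). The cause was not tested. Leaving out each mouse in turn, ablated SVZ against controls gave 0 to 1 members called (1 without G1), 6 to 11 higher, 0 to 1 lower (1 without A5) and 31 to 34 above 0, and the striatum 0 to 1 called (0 without A2 or A4), 2 to 6 higher (2 without A1) and 1 to 4 lower (1 without A2, 4 without P2). Members called ranged in the SVZ from 0 to 3 against NestinTK+ PBS (2 without A2, 3 without T1) and from 0 to 1 in each other comparison of the 4 groups (1 without G3 against NestinTK- GCV, without A5, G1, G3 or T2 for GCV in NestinTK- mice, without T1 for genotype under PBS and without A5 for the interaction). In the striatum they ranged from 0 to 2 against NestinTK+ PBS (1 without T1, T3 or T4, 2 without A1), from 1 to 2 against NestinTK- GCV (1 without A2, A4, G1, G2 or G3), from 0 to 1 for GCV in NestinTK- mice (0 without G3 or P2), from 0 to 2 for genotype under PBS (0 without T2, 1 without P1 or P2) and from 2 to 5 for the interaction (2 without T2). Over these fits and comparisons, 0.0495 to 1.83% of all genes were called in the SVZ and 0.472 to 5.09% in the striatum. With all mice kept, 3.73% of all SVZ genes were higher, 6.09% lower and 48.1% above 0 in ablated mice against pooled controls. In the striatum 5.19% were higher and 5.31% lower. Not every count without a mouse is given with its own share of all genes. No paired analysis was possible because the groups compared within a tissue come from different mice. In the striatum, depth limits Grm2, Gabrq and Grm8, which had at most 24, 10 and 47 reads in a mouse. In the SVZ, Grm2 and Grin3b reached 273 and 159 reads in single mice and had 0 in others, so their differences rest on few mice.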

Other observations

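Several GABA-A subunit genes lie in clusters, and their differences in the ablated mice were read in that order (log2 fold change, unadjusted p). In the cluster on chromosome 5, which spans 1.4 Mb, Gabrg1 (0.36, unadjusted p = 0.0193) and Gabra2 (0.34, unadjusted p = 0.0227) had positive values in the striatum, and Gabra4 (-0.06, unadjusted p = 0.589) and Gabrb1 (0.04, unadjusted p = 0.69) values near 0. In the 1.11 Mb cluster on chromosome 7, Gabra5 was 0.44 (unadjusted p = 0.0236) and Gabrg3 -0.17 (unadjusted p = 0.306). In the SVZ the 4 genes on chromosome 5 had values of 0.76 for Gabrg1, 0.26 for Gabra2, 0.24 for Gabra4 and 0.26 for Gabrb1, with unadjusted p-values from 0.16 to 0.265. The clusters were chosen by position, and no difference between clusters or tissues was tested.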
